A study of Mus musculus with 10 samples.

Results

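The genes described here are 40 genes of the cell cycle and of DNA replication, chosen by symbol: cyclins, cyclin-dependent kinases and their inhibitors, CDC25 phosphatases, subunits of the replication machinery, mitotic kinases and checkpoint genes, and a pair of transcription factors. All 40 are listed both in the adult table, which holds 20007 genes, and in the day 7 table, which holds 17816 genes. *Ccna1* and *Aurkc*, the forms of cyclin A and aurora kinase known from meiotic cells, were set apart from the other 38. The series asks how gene expression differs between control mice and mice in which *Rnf20*, a ubiquitin ligase gene acting on histone H2B, was deleted in Sertoli cells, the somatic nurse cells of the seminiferous tubule. Floxed *Rnf20* alleles were removed by a Cre recombinase driven by the *Amh* promoter, which is active in Sertoli cells.

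RNA-seq was available for 10 libraries. In the adult table, 3 testes labelled WT were compared with 3 testes labelled RNF20 conditional knockout. In the day 7 table, 2 samples of Sertoli cells labelled WT (*Rnf20* Flox/Flox in the study's methods) were compared with 2 labelled knockout (*Amh-Rnf20*-/-). By the study's methods all were taken 7 days after birth as adherent primary cells grown in serum and passaged. The growth protocol of the series instead names adult tissue for every sample. The adult libraries come from whole testis, so that every cell type of the organ contributes, and their exact alleles and age in weeks are not given in the sources used here. Nothing in the labels says more than a number about where the replicates came from, so p-values measure only the spread between these samples. Below, WT and knockout name the labels.

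Rounded estimated counts summed to 15431935 to 16574160 per adult library and to 17477282 to 17705359 per day 7 library. *Rnf20* itself stood at 16.6 and 16.01 FPKM in the day 7 WT libraries and 10.2 and 12.6 FPKM in the knockout libraries, both of which were lower. In adult testis it stood at 4.89, 3.32 and 4.09 FPKM in WT and 9.16, 5.76 and 9.85 FPKM in the libraries labelled knockout, all of which were higher, so the whole-gene value does not check the adult labels. The day 7 log2 fold change of *Rnf20* was -0.49 (SE 0.12) with an adjusted p of 0.222 (edgeR). The adult log2 fold change of *Rnf20* was 0.12 (SE 0.27) with an adjusted p of 0.688 (edgeR), and 0.97 with an adjusted p of 0.017 when scaled by the total count. FPKM, fragments per length of transcript and depth of library, is given for each library, and log2 fold changes are knockout minus WT from edgeR's quasi-likelihood test with TMM scaling, with a standard error (SE) and a p adjusted over all genes of the table. In adult testis a second fold change, from scaling by the total count alone, follows for members described by a fold change, because the choice moved the median of all genes from 0.01 to 0.87 on the log2 scale. A gene is said to have risen or fallen when its adjusted p was under 0.05, and to have passed both thresholds when its adjusted p was also under 0.001 and its fold change over 1 on the log2 scale.

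Cell division is driven by cyclins, which rise and fall through the cycle and switch on their partner kinases. D and E cyclins act before DNA synthesis, the MCM helicase and PCNA act during it, and A and B cyclins with CDK1, the aurora kinases and PLK1 act at mitosis. In the testis spermatogonia divide by mitosis and spermatocytes by meiosis, while Sertoli cells proliferate around birth and stop dividing as they mature. Names such as mitosis genes give a known role only. Which kind of division the members served in these libraries was not tested. Many genes that peak before mitosis share short promoter elements: the CCAAT box, bound by NF-Y, and the CHR element, bound by the DREAM and MuvB complexes, while many genes of the start of DNA synthesis hold E2F sites.

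The promoters of 5 members are printed because they carry these elements and because the genes differed in adult testis: *Ccnb2*, *Cdk1* and *Cdc20*, which fell and act at mitosis; *Ccna1*, which fell and is meiotic; and *Cdkn1b*, which rose. Each line gives the 250 bases before a start given by RefSeq for the gene (GRCm38.p6), 5′ to 3′ on the gene's strand, which for *Ccna1* lie inside the annotated gene (chr3:55045469-55057634), with capitals marking every match to the motifs spelled out in the paragraph on promoters.
Ccnb2, chr9:70421555-70421804, minus strand: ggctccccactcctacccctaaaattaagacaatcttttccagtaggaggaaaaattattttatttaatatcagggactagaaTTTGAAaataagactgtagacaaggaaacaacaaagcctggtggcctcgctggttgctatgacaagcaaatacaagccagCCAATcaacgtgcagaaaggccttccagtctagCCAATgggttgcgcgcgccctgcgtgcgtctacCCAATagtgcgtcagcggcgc
Cdk1, chr10:69352913-69353162, minus strand: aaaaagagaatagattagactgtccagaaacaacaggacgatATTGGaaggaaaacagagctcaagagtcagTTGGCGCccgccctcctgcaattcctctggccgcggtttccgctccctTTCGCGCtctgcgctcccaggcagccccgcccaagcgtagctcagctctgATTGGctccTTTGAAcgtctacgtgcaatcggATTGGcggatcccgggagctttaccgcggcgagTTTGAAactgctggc
Cdc20, chr4:118437344-118437593, minus strand: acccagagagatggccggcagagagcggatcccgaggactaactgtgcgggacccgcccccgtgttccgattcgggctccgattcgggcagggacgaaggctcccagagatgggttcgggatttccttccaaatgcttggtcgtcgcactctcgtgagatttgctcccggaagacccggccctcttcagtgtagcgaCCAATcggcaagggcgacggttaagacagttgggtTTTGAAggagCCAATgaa
Ccna1, chr3:55055056-55055305, minus strand: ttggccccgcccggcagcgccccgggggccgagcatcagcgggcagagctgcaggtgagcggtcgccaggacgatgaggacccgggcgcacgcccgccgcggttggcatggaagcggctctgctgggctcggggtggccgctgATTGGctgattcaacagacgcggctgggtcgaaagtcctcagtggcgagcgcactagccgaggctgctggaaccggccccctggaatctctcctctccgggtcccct
Cdkn1b, chr6:134920151-134920400, plus strand: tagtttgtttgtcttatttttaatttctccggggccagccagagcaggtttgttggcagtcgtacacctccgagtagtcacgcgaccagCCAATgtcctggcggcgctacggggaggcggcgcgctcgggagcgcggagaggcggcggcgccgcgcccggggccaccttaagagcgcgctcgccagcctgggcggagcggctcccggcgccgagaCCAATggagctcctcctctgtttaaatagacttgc

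In adult testis, most members tied to mitosis were far lower in the libraries labelled knockout, while *Ccnd2*, *Cdk4*, *Cdkn1b*, *Cdc25b*, *Mcm2* and *Mcm4* were higher. All 40 members were tested. Past both thresholds 6 were higher and 5 lower, against 23% and 23.7% of the 15919 genes tested, and 40.9% of all genes rose and 40.6% fell at an adjusted p under 0.05, where 8 and 18 members did (edgeR). Both shares of members past both thresholds, and the share that rose at an adjusted p under 0.05, thus lay under those of all genes, while the share that fell was close to its background. The median log2 fold change was -1.60 over the 40 members and -1.32 over the 38 without the meiotic forms. With total-count scaling 7 members passed both thresholds as higher and 1 as lower, against 36.7% and 14.1% of all genes, and the median over the members was -0.71. DESeq2 put 6 past both thresholds as higher and 18 as lower, against 29% and 35.5% of all genes. On FPKM, all knockout libraries stood above all WT libraries for 12 members and below them for 20, against 54.9% and 32.4% of all genes.

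Knockout replicate 1 stood apart from the other 2 knockout libraries and decides several of these counts. It was the lowest of the 6 libraries for 26 members and lay under both other knockout libraries for 34 of 40, against 51.3% of all genes tested. A total of 17 members were under 1 FPKM in it, against 2 and 0 in knockout replicates 2 and 3, and 3 members had no count in it. The median over members of the log2 ratio to the WT mean, from FPKM + 0.1, was -2.15 in knockout replicate 1, -0.40 in replicate 2 and -0.11 in replicate 3. Without it, 9 members passed both thresholds as higher and 19 as lower, against 33.1% and 31.6% of all genes. With total-count scaling as well, 13 were higher and 13 lower, against 7269 and 3772 of 15919 genes. Of the 26 members with an adjusted p under 0.05, 20 kept the call and direction in all of the 8 other settings and with each of the 6 libraries left out in turn, 6 of them higher and 14 lower. When a library was left out under total-count scaling too, 16 kept the call each time, 6 higher and 10 lower, while *Ccna1*, *Cdc25a*, *Bub1b* and *Aurkb* lost it without some of the libraries.

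Markers of testis cell types differed as well, and are counted at an adjusted p under 0.05, where 40.9% of all genes rose and 40.6% fell (edgeR). The 12 spermatid markers summed to 126545 to 195265 FPKM in WT and to 16.8 to 140.1 FPKM in the knockout libraries, and all 12 fell. The 12 spermatocyte markers summed to 5065 to 5262 FPKM in WT and 36.9 to 512 FPKM in the knockout libraries, where 8 fell, or 5 with total-count scaling. Of their defining genes, *Sycp3*, an element of the synaptonemal complex, read 0.8, 42.5 and 72.4 FPKM in knockout replicates 1, 2 and 3, against 195, 192 and 191 FPKM in WT, and *Spo11*, which makes meiotic double-strand breaks, was at 0 in replicate 1. The 14 spermatogonium markers summed to 804 to 918 FPKM in WT and 60.5 to 488 FPKM in the knockout libraries, where 3 of the 12 tested rose (*Kit*, *Zbtb16* and *Etv5*) and 5 fell. Most of the WT sum came from *Dmrtb1*, at 508 to 638 FPKM, and *Ddx4*, at 169 to 199 FPKM, and both fell. The 16 Sertoli markers summed to 915 to 1146 and 2991 to 9260 FPKM, and 9 rose (14 with total-count scaling) and 1, *Rhox5*, fell, while *Sox9*, *Fshr*, *Dhh* and *Aard* were under every WT library in knockout replicate 1. The 6 Leydig markers summed to 4000 to 5608 and 63201 to 87492 FPKM, the 6 fibroblast markers to 40.5 to 53.4 and 1303 to 3390 FPKM, and the 8 macrophage markers to 53.4 to 63.7 and 1149 to 1566 FPKM, and every gene of these 3 lists rose. Of the 6 endothelial and 7 myoid markers 5 and 5 rose and 0 and 1 fell. The endothelial sums were 4.61 to 5.5 and 45.2 to 76.3 FPKM. The myoid sums overlapped, at 299 to 372 and 240 to 451 FPKM, since *Actg2* fell from 255, 335 and 278 FPKM to 1.67, 2.22 and 3.6 FPKM. Most of the spermatocyte sum in WT came from *Ldhc*, at 3746 to 3908 FPKM, and most of the Leydig sum from *Insl3*, at 3700 to 5402 FPKM. In a whole organ, fewer cells of a type and less RNA per cell cannot be told apart, and the part of cell makeup in the values of the 40 genes was not tested.

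**Figure D1:**
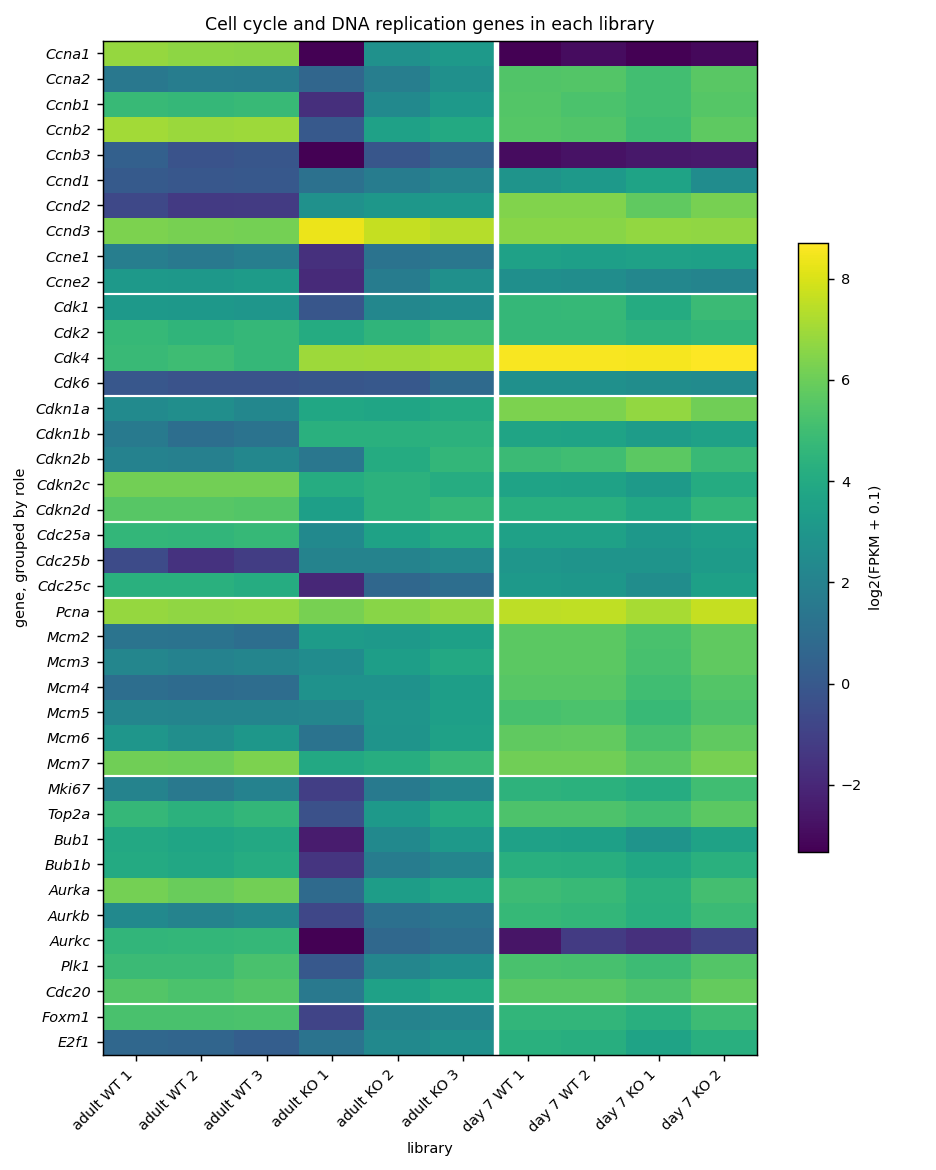
Level of each of the 40 genes in each library, as colour on the scale log2(FPKM + 0.1), with genes in rows grouped by role (white lines) and the 6 adult and 4 day 7 libraries in columns. The adult and day 7 values were normalized separately; in the adult block, knockout replicate 1 is dark across the mitosis rows, and at day 7 *Ccna1*, *Ccnb3* and *Aurkc* stay under 0.5 FPKM in every library.

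The meiotic forms were among the largest falls. *Ccna1*, which encodes cyclin A1 of meiotic male germ cells, stood at 109, 99.5 and 97.2 FPKM in WT and 0, 6.7 and 8.77 FPKM in the knockout libraries. The fit gave a log2 fold change of -5.21 (SE 1.34), adjusted p 0.011 (edgeR), and -4.31 with total-count scaling. The lowest WT library stood far above the highest knockout library. *Aurkc*, the aurora kinase of meiotic chromosomes, stood at 23.9, 24.4 and 25.4 FPKM in WT and 0, 1.55 and 2.01 FPKM in the knockout libraries, a log2 fold change of -5.24 (SE 0.88) with an adjusted p of 0.0017 (edgeR) and -4.35 with total-count scaling. Neither passed both thresholds, and knockout replicate 1 had no count for either.

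Set against their mitotic relatives, both forms lost ground. The log2 ratio of *Ccna1* to *Ccna2*, from FPKM + 0.1, was 5.30, 4.85 and 4.87 in WT and -3.95, 0.96 and 0.46 in the knockout libraries, a difference of -5.85. *Ccna2*, cyclin A2 of dividing cells, was itself near level, with 2.67, 3.35 and 3.23 FPKM in WT and 1.45, 3.39 and 6.37 FPKM in the knockout libraries, and the sign of its fold change turned with the scaling, from -0.61 (SE 0.48) to 0.28. The log2 ratio of *Aurkc* to *Aurkb* was 2.22, 2.55 and 2.39 in WT and -2.54, -0.39 and -0.25 in the knockout libraries, a difference of -3.44. In knockout replicate 1 *Ccna1* and *Aurkc* were at 0, so its ratios rest on the added 0.1, and with 1 added instead the differences were -4.68 and -2.52. In both cases the groups did not overlap, and the exact two-sided permutation p was 0.1, the smallest that 3 against 3 libraries can give, or 0.114 adjusted over the 8 ratios examined.

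Among the other cyclins, the B cyclins of mitosis fell, while *Ccnd1* and *Ccnd2* of the D cyclins, which link growth signals to the start of the cycle, rose. *Ccnb2* was the most abundant member in WT testis, with 131, 117 and 122 FPKM against 0.93, 11.6 and 15.6 FPKM in the knockout libraries. Its log2 fold change was -4.61 (SE 0.92), adjusted p 0.0037 (edgeR), and -3.71 with total-count scaling. *Ccnb1*, the other main mitotic cyclin, read 27.7, 25.2 and 26.9 FPKM and 0.21, 5.16 and 8.95 FPKM, a log2 fold change of -3.38 (SE 0.99) with an adjusted p of 0.019 (edgeR), and -2.48 with an adjusted p of 0.054 with total-count scaling. All WT libraries stood above all knockout libraries for both genes. *Ccnb3*, a cyclin of early meiosis, was low everywhere, with 1.2, 0.74 and 0.82 FPKM in WT and 0, 0.82 and 1.33 FPKM in the knockout libraries, and its adjusted p was 0.331 (edgeR). Unlike *Ccna1* and *Aurkc*, it gained on its mitotic relative. The log2 ratio of *Ccnb3* to *Ccnb2* was -6.65, -7.13 and -7.05 in WT and -3.36, -3.67 and -3.46 in the knockout libraries. The difference was 3.45, or 3.83 with 1 added in place of 0.1.

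The D cyclins changed in make-up. *Ccnd2* stood at 0.5, 0.31 and 0.33 FPKM in WT and 6.6, 8.2 and 8.74 FPKM in the knockout libraries, the largest rise of the 40 genes, with a log2 fold change of 3.50 (SE 0.22), adjusted p 4.8e-05 (edgeR), and 4.36 with total-count scaling. *Ccnd1* rose less, from 0.96, 0.86 and 0.9 FPKM to 2.1, 3.19 and 4.3 FPKM, a log2 fold change of 0.94 (SE 0.27) with an adjusted p of 0.018 (edgeR), and 1.81 with total-count scaling. It lost the call with TMM scaling when any single WT library was left out. The groups did not overlap for either gene. *Ccnd3* was by far the most abundant D cyclin in each adult library, at 79.3, 73.7 and 73.2 FPKM in WT and 322, 199.9 and 162 FPKM in the knockout libraries. The fitted log2 fold change of *Ccnd3* was 0.74 (SE 0.31) with an adjusted p of 0.066 (edgeR), and 1.58 with an adjusted p of 0.0023 with total-count scaling. Without knockout replicate 1 these were 0.49 (SE 0.14) with an adjusted p of 0.009 (edgeR), and 1.24 with an adjusted p of 8.7e-06. Its share of the summed D cyclin FPKM was 98.2% to 98.4% in WT and 92.5% to 97.4% in the knockout libraries, while that of *Ccnd2* was 0.414% to 0.619% and 2.0% to 5.01%.

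The log2 ratio of *Ccnd2* to *Ccnd1* was -0.82, -1.23 and -1.22 in WT and 1.61, 1.34 and 1.01 in the knockout libraries. So *Ccnd1* was the higher of the pair in each WT library and *Ccnd2* in each knockout library. The E cyclins, which act with CDK2 at the start of DNA synthesis, did not reach an adjusted p of 0.05 with TMM scaling. *Ccne1* read 3.44, 2.84 and 3.4 FPKM and 0.22, 2.29 and 2.63 FPKM, with an adjusted p of 0.06, and *Ccne2* read 9.07, 8.47 and 9.53 FPKM and 0.17, 3.15 and 6.53 FPKM, with an adjusted p of 0.053 (edgeR). Their WT libraries all stood above the knockout libraries, and without knockout replicate 1 the adjusted p was 0.001 and 2.0e-04. Over all libraries it was 0.039 and 0.038 with median-ratio size factors and 0.011 and 0.0089 by DESeq2, but 0.291 and 0.185 with total-count scaling, which became 0.156 and 0.01 without that replicate.

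The kinases split. *Cdk4*, partner of the D cyclins, stood at 27.8, 31.04 and 25.2 FPKM in WT and 122, 128 and 141 FPKM in the knockout libraries. Its log2 fold change was 1.39 (SE 0.14), adjusted p 2.0e-04 (edgeR), and 2.26 with total-count scaling. All 3 knockout libraries were far above the 3 WT libraries and close to each other. *Cdk1*, the kinase of mitosis, read 8.8, 8.36 and 7.86 FPKM in WT and 0.83, 4.6 and 5.65 FPKM in the knockout libraries, with a log2 fold change of -2.06 (SE 0.61) and an adjusted p of 0.019 (edgeR), and -1.17 with an adjusted p of 0.122 with total-count scaling. *Cdk2*, which pairs with cyclins E and A, read 26.02, 23.2 and 25.6 FPKM and 16.5, 23.1 and 30.7 FPKM, so the groups overlapped on FPKM. Its log2 fold change was -0.99 (SE 0.20), adjusted p 0.0039 (edgeR), but -0.12 with an adjusted p of 0.647 with total-count scaling. *Cdk6*, the other partner of D cyclins, was under 2 FPKM in each library and its direction turned with the scaling, from -0.33 (SE 0.29) to 0.54. *Cdk4* made up 42.5% to 49.0% of the summed FPKM of the 4 kinases in WT and 78.7% to 87.0% in the knockout libraries.

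The CDK inhibitors changed in both directions. *Cdkn2c* and *Cdkn2d*, which encode the INK4 inhibitors p18 and p19 of CDK4 and CDK6, fell. *Cdkn2c* stood at 71.1, 70.8 and 70.6 FPKM in WT and 17.4, 20.7 and 17.3 FPKM in the knockout libraries, a log2 fold change of -3.41 (SE 0.15), adjusted p 2.7e-05 (edgeR), and -2.55 with total-count scaling. *Cdkn2d* read 47.04, 48.2 and 44.0 FPKM and 10.9, 21.2 and 25.2 FPKM, a log2 fold change of -2.13 (SE 0.28), adjusted p 6.1e-04 (edgeR), and -1.25 with total-count scaling. The groups did not overlap for either, and the FPKM spread of *Cdkn2c* within each group was small. The counts of *Cdkn2c*, 1900, 1790 and 1950 in WT and 253, 360 and 317 in the knockout libraries, fell more than its FPKM. FPKM also depends on transcript length, and the reason for the difference was not tested. *Cdkn1b*, which encodes p27, an inhibitor known from Sertoli cells that have left the cycle, rose from 3.0, 1.9 and 2.29 FPKM to 19.4, 19.8 and 20.8 FPKM. The log2 fold change of *Cdkn1b* was 2.20 (SE 0.18), adjusted p 9.7e-05 (edgeR), and 3.06 with total-count scaling. The 3 knockout libraries agreed closely, knockout replicate 1 included. *Cdkn1a*, which encodes p21, the inhibitor switched on by p53, rose from 5.35, 5.94 and 4.63 FPKM to 14.04, 13.3 and 16.2 FPKM with a log2 fold change of 0.59 (SE 0.17) and an adjusted p of 0.017 (edgeR), and 1.45 with an adjusted p of 3.1e-04 with total-count scaling. It lost the call by DESeq2, with median-ratio size factors, with the replicate block and without WT replicate 1 or 3. *Cdkn2b*, which encodes p15, read 3.93, 3.6 and 4.69 FPKM and 2.66, 16.4 and 25.01 FPKM, with knockout replicate 1 under every WT library and the other 2 well above them. Its log2 fold change was 0.96 (SE 0.70) with an adjusted p of 0.242 (edgeR), and 1.85 with an adjusted p of 0.054 with total-count scaling. Without knockout replicate 1 these were 1.58 with an adjusted p of 8.7e-05 (edgeR), and 2.34 with an adjusted p of 8.5e-06. Together *Cdkn2c* and *Cdkn2d* were the leading inhibitors in WT, with *Cdkn2c* at 54.3% to 55.9% of the summed FPKM of the 5 genes and 16.6% to 27.0% in the knockout libraries, where *Cdkn1b* reached 19.9% to 30.1% against 1.46% to 2.30% in WT.

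The 3 CDC25 phosphatases, which activate CDKs by removing an inhibitory phosphate, moved in opposite directions. *Cdc25b* rose from 0.57, 0.24 and 0.35 FPKM to 4.07, 4.0 and 4.86 FPKM, with a log2 fold change of 2.63 (SE 0.33), adjusted p 4.8e-04 (edgeR), and 3.48 with total-count scaling. *Cdc25c*, a phosphatase of mitotic entry, fell from 19.4, 19.8 and 17.1 FPKM to 0.15, 1.5 and 1.9 FPKM, with a log2 fold change of -4.76 (SE 0.66), adjusted p 7.6e-04 (edgeR), and -3.88 with total-count scaling. No library of one group reached the range of the other in either gene. *Cdc25a*, which acts earlier in the cycle, fell from 24.4, 23.6 and 26.2 FPKM to 5.09, 11.9 and 16.8 FPKM (log2 fold change -1.99, SE 0.39, adjusted p 0.0033, edgeR, and -1.11 with total-count scaling). The log2 ratio of *Cdc25c* to *Cdc25b* was 4.87, 5.87 and 5.26 in WT and -4.06, -1.36 and -1.31 in the knockout libraries, the largest difference of the 8 ratios at -7.57, with an exact permutation p of 0.1, and -5.22 with 1 added in place of 0.1.

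**Figure D2:**
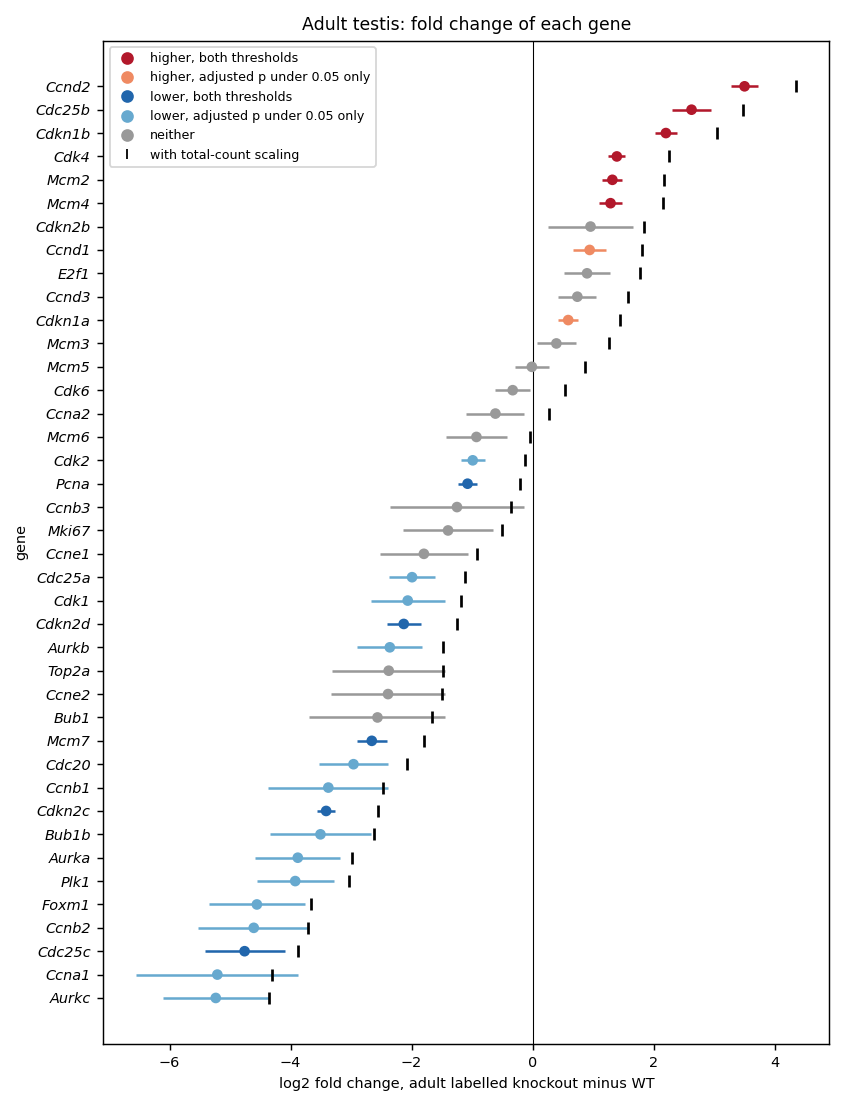
Log2 fold change (knockout minus WT) of each of the 40 genes in adult testis, sorted by size: points and lines give the TMM-scaled edgeR value and its SE, colours the call, and black ticks the value with total-count scaling. *Ccnd2* is highest at 3.50 and *Aurkc* lowest at -5.24, and the ticks lie to the right of all points.

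The subunits of the MCM2 to MCM7 helicase, a ring with one copy of each, were uneven in WT testis and more even in the knockout libraries. *Mcm2* stood at 2.38, 2.26 and 1.9 FPKM in WT and 9.53, 8.78 and 11.3 FPKM in the knockout libraries, a log2 fold change of 1.32 (SE 0.17), adjusted p 5.1e-04 (edgeR), and 2.18 with total-count scaling. *Mcm4* stood at 1.9, 1.72 and 1.86 FPKM and 6.98, 6.91 and 10.6 FPKM, a log2 fold change of 1.29 (SE 0.19), adjusted p 9.8e-04 (edgeR), and 2.15 with total-count scaling. Both rose without overlap. *Mcm7* went the other way, from 67.9, 65.9 and 78.8 FPKM to 15.03, 17.9 and 28.5 FPKM, a log2 fold change of -2.66 (SE 0.24), adjusted p 1.5e-04 (edgeR), and -1.79 with total-count scaling. *Mcm3*, *Mcm5* and *Mcm6* did not reach an adjusted p of 0.05, with log2 fold changes of 0.39 (SE 0.32), -0.01 (SE 0.28) and -0.93 (SE 0.51). With total-count scaling *Mcm3* and *Mcm5* rose, at 1.27 and 0.86 with adjusted p-values of 0.016 and 0.041, and *Mcm6* was at -0.04. Without knockout replicate 1 the 3 genes were at 0.81, 0.37 and -0.39, with adjusted p-values of 0.0013, 0.054 and 0.086 (edgeR). With total-count scaling as well they were at 1.58, 1.14 and 0.38.

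In WT testis *Mcm7* alone made up 76.4% to 79.5% of the summed FPKM of the 6 subunits and stood 35.7 to 42.4 times above the lowest, *Mcm4*. In the knockout libraries its share was 30.3% to 34.2% and the highest subunit stood 2.59 to 6.56 times above the lowest. In the day 7 Sertoli libraries the share was 21.5% to 23.4% and the span 1.72 to 1.86 times, with both knockout libraries slightly above both WT libraries on each measure. These are levels per length within one library. The *Mcm7* gene (chr5:138164583-138172111, GRCm38.p6) contains the miRNA genes *Mir25*, *Mir93* and *Mir106b* and overlaps *Ap4m1*. The use of strand in counting is not given in the sources used here, so reads of overlapping genes may be shared. The same limit holds for each of the 18 members that overlap another RefSeq gene, such as *Cdk4* (*Tspan31*), *Ccnd3* (*Bysl*) and *Aurka* (*Cstf1*). *Pcna*, the sliding clamp of DNA polymerase, read 109, 105 and 107 FPKM in WT and 73.7, 92.7 and 112 FPKM in the knockout libraries, which overlapped. Its log2 fold change of -1.07 (SE 0.15), adjusted p 8.3e-04 (edgeR), became -0.21 with an adjusted p of 0.313 with total-count scaling.

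**Figure D3:**
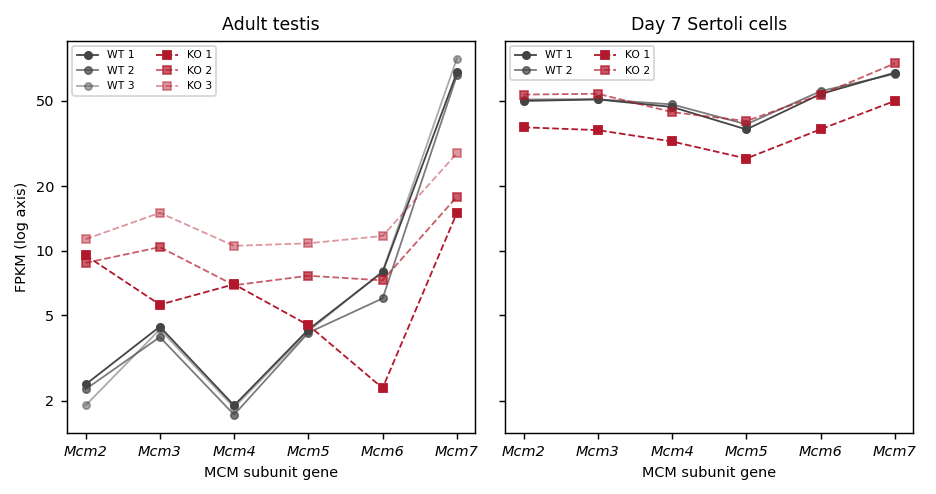
FPKM of the 6 MCM helicase subunit genes in each library, on a log axis, for adult testis (left) and day 7 Sertoli cells (right), with WT as grey circles and knockout as red squares, 1 line per library. In adult WT the line jumps at *Mcm7* to 65.9 to 78.8 FPKM, while the day 7 lines are nearly flat; the 2 panels were normalized separately.

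Of the 9 mitosis genes, *Aurkc* included, 6 fell at an adjusted p under 0.05, none rose, and none passed both thresholds, where 40.6% and 40.9% of all genes fell and rose and 23.7% were lower past both (edgeR). *Plk1*, a kinase of mitotic entry and exit, stood at 28.9, 29.5 and 37.3 FPKM in WT and 0.9, 4.51 and 6.25 FPKM in the knockout libraries (log2 fold change -3.92, SE 0.64, adjusted p 0.0015, edgeR). *Aurka*, the aurora kinase of the spindle poles, stood at 72.2, 61.4 and 69.7 FPKM and 1.69, 10.2 and 13.6 FPKM (log2 fold change -3.88, SE 0.70, adjusted p 0.0024, edgeR). *Cdc20*, which activates the anaphase-promoting complex, stood at 44.5, 38.7 and 44.6 FPKM and 2.8, 11.5 and 16.04 FPKM (log2 fold change -2.96, SE 0.57, adjusted p 0.0032, edgeR). With total-count scaling the fold changes of *Plk1*, *Aurka* and *Cdc20* were -3.04, -2.99 and -2.07. In each of these genes WT libraries stood apart from knockout libraries, and knockout replicate 1 was lowest.

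Among the other mitosis genes the calls were less certain. The checkpoint kinase gene *Bub1b* read 16.01, 14.7 and 17.1 FPKM and 0.26, 3.25 and 4.29 FPKM (adjusted p 0.0079, edgeR), and *Aurkb*, of the chromosomal passenger complex, read 5.05, 4.08 and 4.77 FPKM and 0.48, 2.06 and 2.41 FPKM (adjusted p 0.0065, edgeR). Their log2 fold changes were -3.51 and -2.36, and -2.61 and -1.48 with total-count scaling. *Bub1*, *Top2a*, which untangles DNA, and *Mki67*, the proliferation marker Ki-67, had adjusted p-values of 0.074, 0.052 and 0.127 (edgeR), against 0.016, 0.005 and 0.045 by DESeq2. *Mki67* stood at 4.06, 2.84 and 3.96 FPKM in WT and 0.37, 2.86 and 4.48 FPKM in the knockout libraries: replicate 1 was far under the WT range, replicate 2 inside it and replicate 3 above it. Without replicate 1 the log2 fold changes of *Bub1*, *Top2a* and *Mki67* were -1.86, -1.71 and -0.76, with adjusted p-values of 1.5e-05, 4.5e-05 and 0.005 (edgeR). With total-count scaling as well they were -1.09, -0.93 and 0.0075, and the adjusted p of *Mki67* was 0.976.

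*Foxm1*, a transcription factor that drives many mitosis genes, fell from 38.1, 37.2 and 38.7 FPKM to 0.46, 4.01 and 4.51 FPKM, with a log2 fold change of -4.56 (SE 0.80), adjusted p 0.0021 (edgeR), and -3.67 with total-count scaling. *E2f1*, a transcription factor of the start of DNA synthesis, read 1.49, 1.39 and 1.12 FPKM in WT and 2.28, 5.04 and 6.46 FPKM in the knockout libraries. All knockout libraries stood above WT on FPKM, yet its log2 fold change of 0.90 (SE 0.38) had an adjusted p of 0.068 (edgeR), against 1.78 with an adjusted p of 0.007 with total-count scaling. Without knockout replicate 1 these were 1.34 with an adjusted p of 3.7e-04 (edgeR), and 2.10 with an adjusted p of 1.8e-05.

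**Figure D4:**
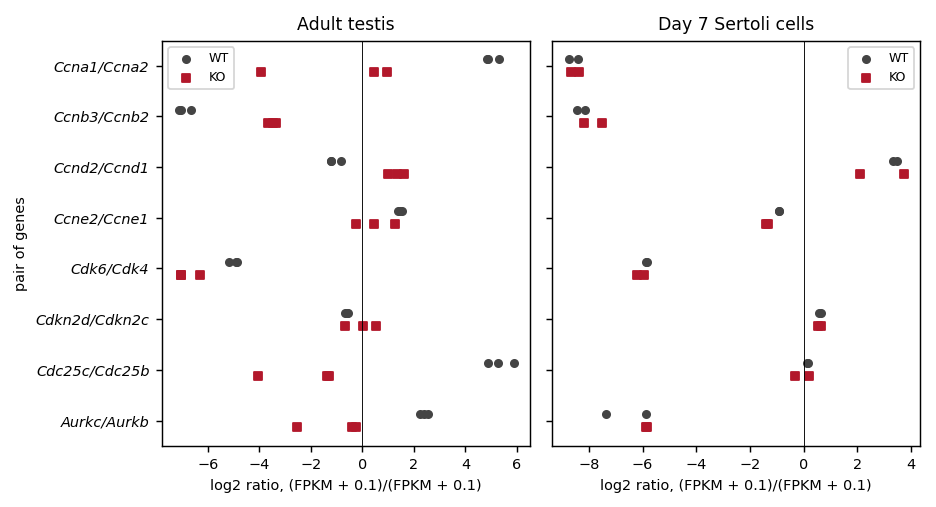
Log2 ratio of 8 pairs of related genes, from FPKM + 0.1, in each library of adult testis (left) and day 7 Sertoli cells (right), with 1 point per library, WT in grey and knockout in red. In adult testis 7 of 8 ratios separate the groups, all but *Cdkn2d*/*Cdkn2c*; at day 7 the ratios with *Ccna1*, *Ccnb3* and *Aurkc* rest on a gene under 0.5 FPKM.

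Other genes of the same pathways were counted in lists that hold none of the 40. Of 27 further mitosis genes, 24 fell and none rose at an adjusted p under 0.05, beside the 40.6% of all genes that fell and the 40.9% that rose. Their median was -2.70 on the log2 scale, and 2 were lower past both thresholds, beside 23.7% (edgeR). *Kif2c*, a microtubule depolymerase, stood at 164, 153 and 152 FPKM in WT and 0.79, 3.78 and 5.21 FPKM in the knockout libraries, and *Incenp*, the scaffold of the passenger complex, at 9.05, 8.23 and 9.37 FPKM and 2.83, 4.39 and 5.69 FPKM. Of 23 further replication genes, 14 fell and 2 rose, against the same 40.6% and 40.9% of all genes, with a median of -1.41. *Gins1* and *Rfc4*, a subunit of the CMG helicase and of the clamp loader, were lowest among those past both thresholds, with log2 fold changes of -2.43 (SE 0.23) and -2.29 (SE 0.17). *Pola1*, the catalytic subunit of polymerase alpha, was higher past both thresholds, with 0.25, 0.19 and 0.26 FPKM in WT and 2.1, 1.99 and 1.7 FPKM in the knockout libraries.

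Of 20 tested cell cycle regulators, 13 fell and 2 rose at an adjusted p under 0.05 (edgeR), where 40.6% of all genes fell and 40.9% rose. The lowest past both thresholds were *Skp2*, which targets p27 for degradation, with 54.3, 51.6 and 60.8 FPKM in WT and 2.24, 3.1 and 3.29 FPKM in the knockout libraries, and *Pkmyt1*, which inhibits CDK1, with 27.6, 29.4 and 27.4 FPKM and 1.03, 4.54 and 4.68 FPKM. *E2f3* and *E2f6* rose, with log2 fold changes of 2.03 (SE 0.28) and 1.78 (SE 0.21). Of 11 genes of the p53 response and cycle arrest, 9 rose and 2 fell against the same shares, and their median was 2.05 on the log2 scale against 0.01 for all genes. *Btg2* and *Ccng1* were highest, at 1.73, 1.43 and 1.39 FPKM and 2.73, 1.82 and 2.72 FPKM in WT and 47.2, 25.1 and 26.2 FPKM and 39.3, 38.7 and 36.9 FPKM in the knockout libraries. *Mdm2*, which degrades p53, fell from 56.7, 54.5 and 63.5 FPKM to 24.8, 27.9 and 32.1 FPKM. With total-count scaling the counts at an adjusted p under 0.05 were 16 lower and 2 higher for mitosis, 6 and 7 for replication, 9 and 4 for regulators, and 1 and 9 for the p53 response, against 30% of all genes lower and 54.1% higher.

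The promoter windows were searched for 4 motifs on both strands: the CCAAT box (CCAAT), the CHR element (TTTGAA or TTCGAA), an E2F site (TTGGCGC, its variants TTGCCGC and TTCGCGC, or the form TTCCCGC) and the core of the cAMP response element (TGACGT). Matches of different motifs can overlap, as where the reversed E2F letters run into CCAAT. RefSeq windows of 250 bases before and 50 after the start were found for 32 of the 40 members, in 36 windows, and a member counted if any of its windows held the letters. CCAAT was present in all 15 of the 18 fallen members that have a window, in 3 of 5 risen members and in 7 of 12 members without a call, against 37.4% of all 32851 windows. The CHR letters were present in 7, 2 and 4 of these members, against 19.2% of all windows. The E2F letters were present in 6, 0 and 5 members, against 9.57%, and the cAMP element in 1, 1 and 4, against 7.51%.

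In the printed sequences, *Ccnb2* holds CCAAT 3 times, starting 87, 54 and 21 bases before the start, and the CHR letters 167 bases before it, with another CHR match just after the start that is not printed. *Cdk1* holds reversed CCAAT 3 times, the CHR letters 71 and 15 bases before the start, and a pair of E2F matches. *Cdc20* holds the CHR letters 18 bases before the start, with CCAAT on either side. *Ccna1* holds a single reversed CCAAT, 107 bases before the start. *Cdkn1b*, which rose, also holds CCAAT, 161 and 35 bases before the start, so the letters are not limited to members that fell. A match describes these letters only, and binding was not measured.

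In the day 7 Sertoli cells, no member passed a test between the groups in any setting that kept all libraries, but the 2 knockout libraries lay on opposite sides of the WT libraries. Of the 40 members 37 were tested, since *Ccna1*, *Ccnb3* and *Aurkc* stayed under 0.5 FPKM in all 4 libraries. By edgeR 0 of 37 had an adjusted p under 0.05, against 0% of the 12880 genes tested, and 2 had an unadjusted p under 0.05, against 15.5%. DESeq2 also called 0 members, against 4.59% of genes at an adjusted p under 0.05 and 0.998% past both thresholds. The median log2 fold change of the members was -0.05.

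In the day 7 WT libraries the members ranged widely in level. *Cdk4* was the most abundant member, with 376 and 386 FPKM in WT and 367 and 413 FPKM in the knockout libraries, followed by *Pcna*, with 179.7 and 185 FPKM and 141 and 199 FPKM. *Mki67* stood at 21.6 and 20.3 FPKM in WT and 17.3 and 31.99 FPKM in the knockout libraries. For *Pcna* and *Mki67* knockout replicate 1 was under and replicate 2 above both WT libraries. All 3 D cyclins were present: *Ccnd3* at 93.2 and 92.5 FPKM in WT and 106 and 105 FPKM in the knockout libraries, *Ccnd2* at 84.6 and 86.04 FPKM and 54.2 and 75.4 FPKM, and *Ccnd1* at 7.45 and 8.55 FPKM and 12.4 and 5.58 FPKM. *Ccnd3* was the only tested member with both knockout libraries above both WT libraries, with a log2 fold change of 0.21 (SE 0.07), an unadjusted p of 0.041 and an adjusted p of 0.304 (edgeR).

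On FPKM, 1 member lay above WT and 8 below it without overlap, against 19.7% and 31.1% of the genes tested. The 8 were *Ccnd2*, *Ccne2*, *Cdk2*, *Cdk6*, *Cdkn1b*, *Cdc25a*, *Mcm4* and *Mcm6*. The second-lowest unadjusted p was that of *Ccne2*, with 6.14 and 5.81 FPKM in WT and 4.64 and 4.17 FPKM in the knockout libraries, a log2 fold change of -0.39 (SE 0.14), unadjusted p 0.046 and adjusted p 0.312 (edgeR). *Ccnd2* had the next, with a log2 fold change of -0.36 (SE 0.17) and an adjusted p of 0.403 (edgeR). Both shares lay under those of all genes.

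Knockout replicate 1 stood below both WT libraries for 32 of the 37 members and above both for 4, while replicate 2 stood above both for 24 and below both for 11. For 23 members replicate 1 was below and replicate 2 above both WT libraries, against 12.7% of all genes tested, and on TMM-scaled counts there were 21, against 12.4%. The 23 include the mitosis genes *Ccna2*, *Ccnb1*, *Ccnb2*, *Cdk1*, *Mki67*, *Top2a*, *Bub1*, *Bub1b*, *Aurka*, *Aurkb*, *Plk1*, *Cdc20* and *Foxm1*, and *Mcm2*, *Mcm3*, *Mcm5* and *Mcm7*. For *Cdk1*, for example, the WT libraries read 25.3 and 26.1 FPKM and the knockout libraries 16.9 and 29.3 FPKM. The reverse, replicate 1 above and replicate 2 below both WT libraries, held for 3 members, against 11.5% of all genes: *Ccnd1*, *Cdkn2b*, with 29.4 and 31.6 FPKM in WT and 50.5 and 28.3 FPKM in the knockout libraries, and *Cdkn1a*, with 78.7 and 79.8 FPKM and 107 and 67.6 FPKM. The median log2 ratio to the WT mean was -0.37 in replicate 1 and 0.12 in replicate 2, and the 2 WT libraries differed by at most 0.20 in any tested member.

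**Figure D5:**
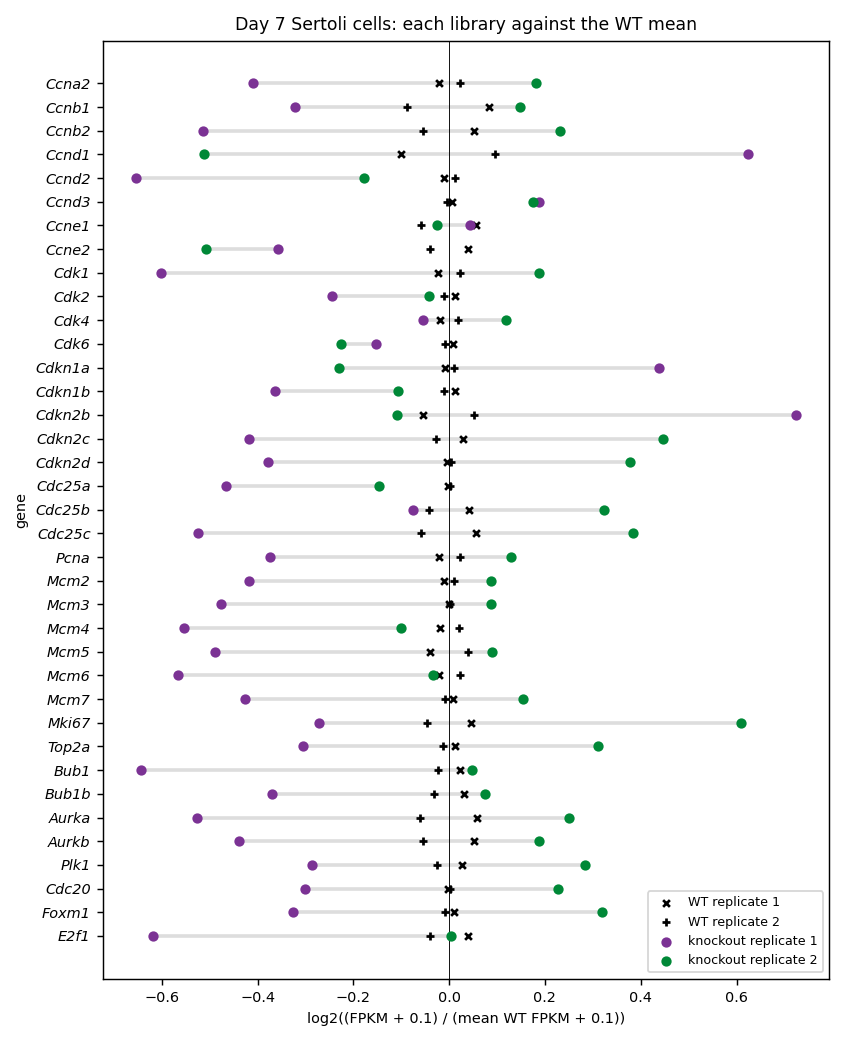
Log2 ratio of each day 7 library to the mean of the WT libraries, from FPKM + 0.1, for the 37 tested genes, with WT as crosses and knockout replicates 1 and 2 as purple and green points joined by a grey line. The purple points lie left of the WT libraries for 32 genes and the green points right of them for 24.

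Each knockout library alone against both WT libraries gave opposite counts, with the lone library assumed to vary like the WT pair. With replicate 1 left out, 15 members were higher and 3 lower at an adjusted p under 0.05, against 9.77% and 11.7% of all genes, and with replicate 2 left out 4 were higher and 25 lower, against 21.1% and 18.9% (edgeR). With total-count scaling these counts were 6 and 1, against 5.12% and 9.72%, and 4 and 25, against 16.1% and 19.2%. None of these passed both thresholds. Whole lists also differed between these 2 libraries. All 27 further mitosis genes and all 23 further replication genes were lower in replicate 1 than in replicate 2, against 52.7% of all genes tested, while 46.9% were higher. Of the 11 genes of the p53 response and cycle arrest, 8 were higher in replicate 1 and 3 lower, and of the 16 Sertoli markers 10 were lower and 6 higher, a share near that of all genes. All 6 fibroblast, 5 of 6 Leydig, 5 of 6 endothelial and 5 of 8 macrophage markers were higher in replicate 1, some of them under 1 FPKM. Of the 7 myoid markers 4 were higher and 3 lower. Of the 14 spermatogonium markers 12 were lower. Of the 12 spermatocyte markers 7 were lower and 3 higher, and of 7 spermatid markers 2 were lower and 4 higher. *Sox9*, a defining Sertoli gene, read 41.8 and 39.4 FPKM in WT and 10.2 and 25.7 FPKM in the knockout libraries, and the p53 target *Ccng1* read 67.98 and 64.6 FPKM and 116 and 61.4 FPKM. In the other direction, the stress gene *Gadd45b* read 108 and 113 FPKM and 52.95 and 100.3 FPKM, and the Sertoli marker *Inhba* read 60.2 and 61.9 FPKM and 59.1 and 43.3 FPKM. The other lists of the pathway had no called gene, with 0 of 23 replication, 0 of 27 mitosis, 0 of 21 regulator and 0 of 11 p53 response genes at an adjusted p under 0.05 (edgeR). Their smallest p-values were those of *Gmnn*, *Rrm1*, *Ect2*, *Aspm*, *Rbl1*, *Rb1*, *Gadd45g* and *Zmat3*, of which *Rbl1* had a log2 fold change of -0.50 (SE 0.12) with an adjusted p of 0.207 and *Gadd45g* of 0.77 (SE 0.12) with an adjusted p of 0.141 (edgeR).

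Cell type markers lay apart in the cultures, although none had an adjusted p under 0.05 and the lowest was 0.119 (edgeR). The 16 Sertoli markers summed to 4818 to 4988 FPKM in WT and 4049 to 4370 FPKM in the knockout libraries, and 11 of 16 lay below both WT libraries, as did 31.1% of all genes. All 7 peritubular myoid markers, summing to 1969 to 2090 and 3645 to 3694 FPKM, and all 6 fibroblast markers, summing to 2152 to 2236 and 3306 to 3920 FPKM, lay above both WT libraries, as did 19.7% of all genes. The 14 spermatogonium markers summed to 223 to 229 FPKM in WT and to 158 FPKM in both knockout libraries. Both knockout libraries stood on the same side of WT for these sums. They were close to each other for the myoid and spermatogonium sums. The fibroblast sum differed between them, with 3920 FPKM in replicate 1 and 3306 FPKM in replicate 2. Most of the spermatogonium sum came from *Uchl1*, at 165 and 149 FPKM in WT and 120 and 107 FPKM in the knockout libraries. Of the 14 spermatogonium markers, 12 were lower in replicate 1 than in replicate 2. *Vim* was the largest part of the Sertoli sum, at 2241 and 2283 FPKM in WT and 2150 and 2308 FPKM in the knockout libraries. Among the Sertoli markers below WT, *Cldn11* read 229 and 214 FPKM in WT and 14.01 and 150 FPKM in the knockout libraries. The part of cell makeup in the 40 genes was not tested.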

How the data were processed

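RNA was enriched on oligo(dT) and sequenced, by the study's methods for the day 7 cells and by the labels for both sample types. The study maps reads with HISAT to GRCm38.p6 and with Bowtie2 to reference genes, and takes expression values from RSEM (versions and strand handling not given in the sources used here). The authors deposited raw estimated counts per gene. The FPKM values of the authors adjust these for transcript length and for depth. TPM values, also deposited, entered no test. The adult experiment is not described in the study's text, and its processing is taken from the labels and column names.

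Estimated counts were rounded and each table was fitted alone. Genes with FPKM of at least 0.5 in as many libraries as the smaller group holds were tested with edgeR 4.0.16 (R 4.3.3), TMM scaling and Benjamini-Hochberg adjustment over 15919 adult and 12880 day 7 genes. The limits of both thresholds (a change over 1 in size on the log2 scale, adjusted p under 0.001) follow the study's methods. DESeq2 1.42.0, limma 3.58.1 on log2(FPKM + 0.1) and log2(FPKM + 1), other scalings, filters, a replicate block and leaving out each library were alternatives. Ratios used log2(FPKM + 0.1) and exact two-sided permutation tests (scipy 1.17.1). The edgeR calls were tested on simulated data with known changes in a small part of the genes. Most of these changes were not called at the spread of the adult libraries. With so few genes changed, an adjusted p under 0.05 is harder to reach than in the adult data. The simulation thus does not give the share of changes missed there. A member without a call in adult testis is not shown to be unchanged. At these depths the spread between libraries, not counting error, limits most comparisons. All 40 members are named, with the 2 highest and 2 lowest genes past both thresholds of each pathway list, the 2 smallest p-values of each list at day 7, *Rnf20* and defining markers. *Ccng1*, *Gadd45b*, *Inhba* and *Sox9* were set beside the day 7 members after their values were seen. The members and lists were chosen with earlier results of these data known. The study's methods give 3 individuals per day 7 group; 2 libraries per group were analysed here.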

Additional observations from a re-analysis of the deposited data

Results flagged for a closer look

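The groups lay apart in opposite directions at the 2 ages for 3 of the 37 genes tested at both, all of them higher in adult testis and lower at day 7, a pattern of 11.4% of the 12378 genes tested at both. None of the 3 had an adjusted p under 0.05 at day 7 (edgeR). *Ccnd2* had a log2 fold change of 3.50 in adult testis, with every knockout library above every WT library, and -0.36 in day 7 Sertoli cells, with both knockout libraries below both WT libraries. The same held for *Cdkn1b*, at 2.20 in adult testis and -0.19 at day 7, and for *Mcm4*, at 1.29 and -0.27. The difference between the ages was not tested: the tables were normalized separately, and one holds whole testis and the other cultured cells.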

How the results depend on the processing

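The 40 members passed both thresholds in adult testis 11 times in all, 6 as higher and 5 as lower. DESeq2 gave 24 (18 lower, against 35.5% of all genes), and the rule of an adjusted p under 0.05 at any fold gave 26. Total-count scaling gave 1 lower, against 14.1% of all genes. By limma on log2(FPKM + 0.1) 2 were lower, against 2468 of 15919 genes. Replicate numbers are shared between groups but did not pair the libraries, with same-number correlations of deviations of 0.016, 0.017 and 0.025 in adult testis and 0.038 at day 7. With the replicate block 0 members were past both thresholds in either direction, as were 0 of all genes. At an adjusted p under 0.05 it put 7 members higher and 18 lower, beside 6063 and 6149 of 15919 genes. Combining total-count scaling with leaving out a library, and counting members at an adjusted p under 0.05 in settings other than the one reported, were chosen after seeing the data. Leaving out 1 library, with either scaling, also moved the counts over all 15919 adult genes. Past both thresholds 1083 to 7269 genes were higher and 863 to 5032 lower. At an adjusted p under 0.05, 5964 to 9067 genes were higher and 4301 to 6550 lower. Among the members, leaving out 1 library put 2 to 28 past both thresholds, 1 to 13 higher and 1 to 19 lower. It gave 6 to 15 higher and 10 to 23 lower at an adjusted p under 0.05. At day 7 it gave 0 to 15 higher and 0 to 25 lower, the largest counts without knockout replicate 1 and 2 respectively. The lone library left in a day 7 group was assumed to vary like the pair. The direction of 3 adult members turned with the setting: *Ccna2* was 0.28 with total-count scaling and 0.0458 and 0.0771 by limma (log2(FPKM + 0.1) and log2(FPKM + 1)), *Cdk6* 0.54, 0.42 and 0.24, and *Mcm5* 0.86, 0.76 and 0.66, and 0.0252 without a filter on low values. At day 7, limma with the 2 added values gave *Cdc25c* -0.0692 and -0.0562, *Cdc20* -0.0371 and -0.0360 (-0.0131 with total-count scaling), *Foxm1* -0.00352 and -0.00213, and *Plk1* -0.000603 (log2(FPKM + 0.1)). Adult log2 fold changes whose sign turned when a library was left out ranged as follows: *Ccna2* -1.07 to 0.66, *Ccnb3* -1.85 to 0.23, *Cdk2* -1.09 to 0.079, *Cdk6* -0.60 to 0.73, *Mcm5* -0.20 to 1.14, *Mcm6* -1.32 to 0.38 and *Mki67* -1.87 to 0.0075. Those at day 7 were *Ccna2* -0.37 to 0.22, *Ccnb1* -0.28 to 0.18, *Ccnb2* -0.47 to 0.26, *Ccnd1* -0.49 to 0.67, *Ccne1* -0.013 to 0.12, *Cdk1* -0.56 to 0.22, *Cdk4* -0.0063 to 0.15, *Cdkn1a* -0.20 to 0.49, *Cdkn2b* -0.078 to 0.78, *Cdkn2c* -0.28 to 0.52, *Cdkn2d* -0.33 to 0.41, *Cdc25b* -0.029 to 0.36, *Cdc25c* -0.34 to 0.53, *Pcna* -0.33 to 0.16, *Mcm2* -0.38 to 0.12, *Mcm3* -0.43 to 0.13, *Mcm5* -0.45 to 0.12, *Mcm6* -0.52 to 0.0018, *Mcm7* -0.38 to 0.19, *Mki67* -0.22 to 0.65, *Top2a* -0.26 to 0.35, *Bub1* -0.61 to 0.082, *Bub1b* -0.33 to 0.11, *Aurka* -0.49 to 0.28, *Aurkb* -0.39 to 0.22, *Plk1* -0.24 to 0.32, *Cdc20* -0.26 to 0.26, *Foxm1* -0.28 to 0.36 and *E2f1* -0.58 to 0.0399. Day 7 differences of log2 ratios that turned were *Ccna1*/*Ccna2* -0.11 to 0.22, *Ccnd2*/*Ccnd1* -1.28 to 0.33, *Cdkn2d*/*Cdkn2c* -0.068 to 0.0401 and *Cdc25c*/*Cdc25b* -0.45 to 0.061. The cause of these changes was not tested.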
